A study of Mus musculus with 3 samples.

Results

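The genes described here are 6 members of the mouse Ifi200 family of DNA sensors, Ifi202b, Ifi203, Ifi204, Ifi205, Mndal and Aim2, out of 26989 genes listed in any of 3 single-cell count tables of mouse skin. They were found by symbol, and each table lists all 6. The set was chosen by family membership with earlier results of these libraries in view, among them the lower Ifi202b count in UV keratinocytes. That difference is therefore a description and supports nothing else.

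The cells came from the whole skin of C57BL/6 mice aged 9 weeks and were sequenced with the GEXSCOPE kit from Singleron, which marks each cell's transcripts with a barcode. There were 3 libraries, 1 per group: unirradiated skin given saline (control), UV-irradiated skin given saline (UV), and UV-irradiated skin given VD (UV plus vitamin D; the labels do not spell VD out, and the title of the series speaks of vitamin D). The sources used here do not give the number of mice behind each library, the UV dose, the time after exposure or the vitamin D dose. With 1 library per group there is no replicate check and no test, so a difference between libraries cannot be told apart from a difference between animals or preparations. Intervals below are 95% and cover counting error only.

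Filtering kept 9078 cells in control, 5451 in UV and 6199 in the vitamin D library, with 50610389 to 79450666 counts per library and median counts per cell of 6822.5, 7566 and 9301. Of the barcodes, 121, 92 and 103 also occurred in another library. Levels are CPM, the summed counts of a gene in a cell class per 1000000 counts of that class in the library. Keratinocytes made up 8471, 3585 and 5763 cells, and their layers were named from marker genes. Krt14, a basal keratin, had 3393, 7779 and 5275 CPM in the basal layer against 69.3, 66.42 and 51.74 CPM in the spinous layer and 117.7, 426.6 and 60.91 CPM in the granular layer of the 3 libraries, a description, since it was among the naming markers. The mix of layers differed: basal cells were 30.3% of all cells in control, 7.91% in UV and 13.4% in the vitamin D library.

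Ifi200 proteins bind DNA through HIN domains, and most also carry a pyrin domain that recruits partner proteins. Aim2 binds DNA in the cytosol and assembles with the adaptor encoded by Pycard and with caspase 1 into an inflammasome, which releases interleukin 1 beta and interleukin 18 and cuts gasdermin D. The protein of Ifi202b has HIN domains but no pyrin domain and can hold Aim2 back from its adaptor. Ifi204 has been linked to signalling through STING, the adaptor encoded by Tmem173, and Ifi205 to the transcription of Pycard. Many members are induced by interferon, which acts through response elements in promoters. In skin, keratinocytes arise in the basal layer and pass through the spinous and granular layers before they cornify.

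The genes lie together on chromosome 1, and the bases before their start sites show how alike some copies are. Promoter windows were read from RefSeq (build GRCm38.p6) for 5 of the 6 genes. Capitals mark the core of an interferon-stimulated response element, searched on both strands as GAAA, 2 bases of any kind, GAAA, except in Ifi202b, where they mark the core of a gamma-activated sequence, searched as TTCNNNGAA on both strands. Aim2 is shown for contrast and held neither core in the 250 bases before its start. The windows, of 60 bases each and read along the gene's strand, were these.
Ifi203, chr1:173942493-173942552, minus strand, 60 to 1 bases before the start: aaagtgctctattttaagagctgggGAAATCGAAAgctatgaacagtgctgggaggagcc
Mndal, chr1:173880188-173880247, minus strand, 60 to 1 bases before the start: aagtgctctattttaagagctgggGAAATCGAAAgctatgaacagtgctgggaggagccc
Ifi205, chr1:174031855-174031914, minus strand, 159 to 100 bases before the start: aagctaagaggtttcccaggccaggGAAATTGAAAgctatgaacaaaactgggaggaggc
Ifi202b, chr1:173982958-173983017, minus strand, 173 to 114 bases before the start: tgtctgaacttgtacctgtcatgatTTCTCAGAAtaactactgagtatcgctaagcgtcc
Aim2, chr1:173420544-173420603, plus strand, 60 to 1 bases before the start: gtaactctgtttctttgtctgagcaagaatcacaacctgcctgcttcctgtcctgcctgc

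Ifi203 and Mndal were identical at 60 of 60 bases around the element, which lay 35 to 26 bases before the Ifi203 start and 36 to 27 bases before the Mndal start. Each of these 2 genes has a second, overlapping window in the table. Across the family, 12 genes had a window, and 9 of them held the response element core, against 2.98% of all 32851 promoter windows. The copies share ancestry, so they are not 9 independent occurrences. The gamma-activated core was found in 1 of 14 family windows, that of Ifi202b. This is near its share of 7.02% over all promoters, so nothing is read from it. The TATA box letters TATAAA, searched on both strands, were in the windows of 5 other family genes and of none of the 5 members with a window, against 12.4% of all promoters. A match is a stretch of letters and not a measured binding site, and no match says only that these letters are not in this window.

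Likeness between copies also bears on the counts. Of the 50-base stretches in the last 600 bases of the Ifi205 transcript in the GENCODE annotation, 82.9% also occur in another gene, all of them in Ifi211, the gene that the count tables list as Mnda. For Mndal the share was 19.8%, spread over Ifi205, Ifi211, Ifi203, Ifi204 and a pseudogene. It was 1.81% for Ifi204, 0.907% for Ifi203, 0.682% for Aim2 and 0% for Ifi202b. The sources used here do not say how reads that match several genes were counted, so the split between Ifi205 and Mnda is uncertain, and in part that of Mndal. For Ifi202b no exact 50-base stretch of this end was shared. Shorter and inexact matches were not searched.

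Most Ifi202b counts came from keratinocytes, 96% in control, 93.9% in UV and 97.8% in UV plus vitamin D. Keratinocytes also gave 95%, 75.7% and 95.7% of all counts, so in control and in UV plus vitamin D the gene's share was close to their share of all counts. Basal cells gave 47.8%, 25.7% and 34% of the Ifi202b counts and 19%, 4.5% and 7.08% of all counts. Its level over all keratinocytes was 1325 CPM in control, 517.2 CPM in UV and 634.6 CPM in UV plus vitamin D. The UV level was 2.56-fold lower than control (interval 2.52 to 2.60), and the UV plus vitamin D level was 1.23-fold above UV (1.21 to 1.25) and 2.09-fold below control (2.06 to 2.11).

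Within each library the level was ordered by layer. In control it was 3298 CPM in basal cells, 1008 CPM in spinous cells, 163.7 CPM in granular cells and 82.29 CPM in late cornifying cells, a 40.1-fold range (33.9 to 47.7) from the first to the last. In UV the same layers had 2382, 556.5, 365.1 and 15.19 CPM. In UV plus vitamin D they had 2982, 616.7, 80.54 and 33 CPM. Of these 4 layers, basal cells were the highest and late cornifying cells the lowest in all 3 libraries, and no neighbouring pair of layers in this order overlapped in its intervals. The basal layer was 3.27-fold above the spinous layer in control, 4.28-fold in UV and 4.84-fold in UV plus vitamin D.

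**Figure D1:**
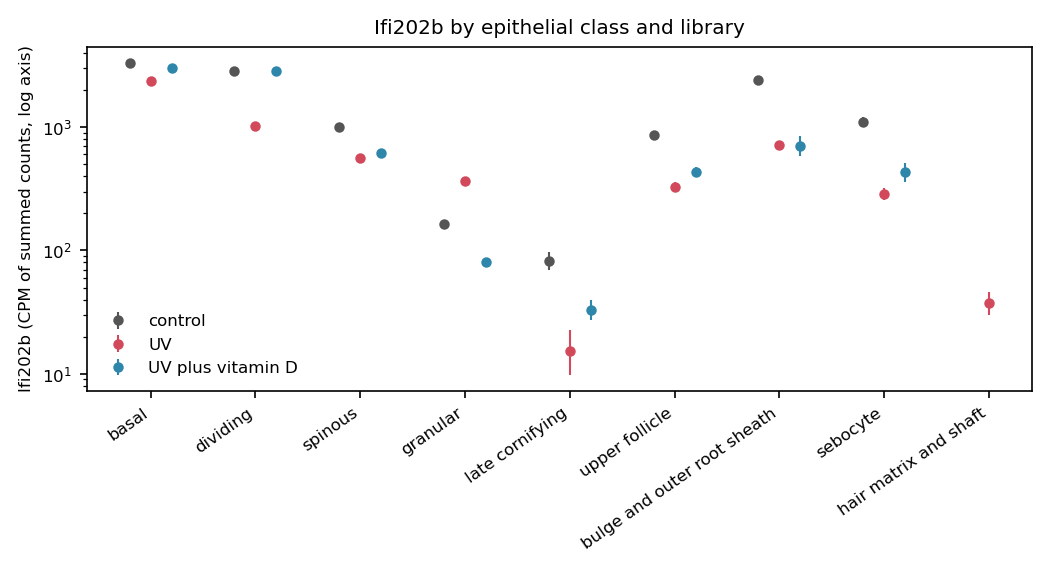
Ifi202b level (CPM of summed counts, log axis) in each epithelial class, 1 point per library with its 95% counting interval. Basal cells lie between 2382 and 3298 CPM, and the granular class is the only one drawn for all 3 libraries in which the UV point is above control.

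The difference between control and UV depended on the layer. Basal cells were 1.39-fold lower in UV than in control (1.35 to 1.42), and spinous cells 1.81-fold lower (1.76 to 1.86). The spinous log2 ratio of -0.86 became 0.02 when library means were subtracted before clustering. Late cornifying cells were 5.42-fold lower (3.49 to 8.74), on 24 UV counts against 138 in control. The granular class went the other way, 2.23-fold higher in UV (2.06 to 2.42). Counts from other cell types were also higher in UV basal cells: the 14 macrophage markers summed to 61.12, 114.3 and 83.76 CPM there and the 14 fibroblast markers to 518.4, 781.1 and 545.2 CPM, and their part in the result was not tested. The mix of layers moved the pooled value: with layers weighted to their shares in control, the log2 ratio over all keratinocytes was -0.68 in place of -1.36.

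The granular value rested on 1 cluster. Cluster 8, led by Rptn, Stfa1, Stfa3 and Krt6a, held 732 UV cells against 66 in control and 89 in UV plus vitamin D, and its Ifi202b level was 297.9 CPM in control, 457.6 CPM in UV and 276.5 CPM in UV plus vitamin D. The other granular cluster, number 6, led by Wfdc21, Slpi and Flg2, had 144.3, 32.47 and 53.75 CPM. Without cluster 8 the granular log2 ratio of UV to control was -2.15, against 1.16 with it. Under 5 of the other ways of classing the cells the granular class was also lower in UV, with values given in the closing section.

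Over the keratinocyte clusters, 16 of 17 had enough cells in both libraries to set UV against control. Ifi202b was lower in UV in 14 of them with the interval clear of equality, higher in cluster 8 alone, and level within counting error in cluster 16, which held 15 UV cells. The log2 ratios ran from -2.44 to 0.62 with a median of -1.17. For UV plus vitamin D against UV the same 16 clusters gave 9 higher, 3 lower and 4 level within counting error, with a median log2 ratio of 0.30. Of the 2 basal clusters, number 3, led by Krt14 and Krt5, had 3733, 2468 and 3593 CPM in control, UV and UV plus vitamin D, while number 2, led by Il33 and Tslp, had 2998, 2145 and 2057 CPM. In the first the vitamin D library was close to control (1.04-fold lower, 1.01 to 1.06), and in the second it was near UV (1.04-fold lower, 0.979 to 1.11). The comparisons share the UV library, so they are given side by side and not correlated.

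**Figure D2:**
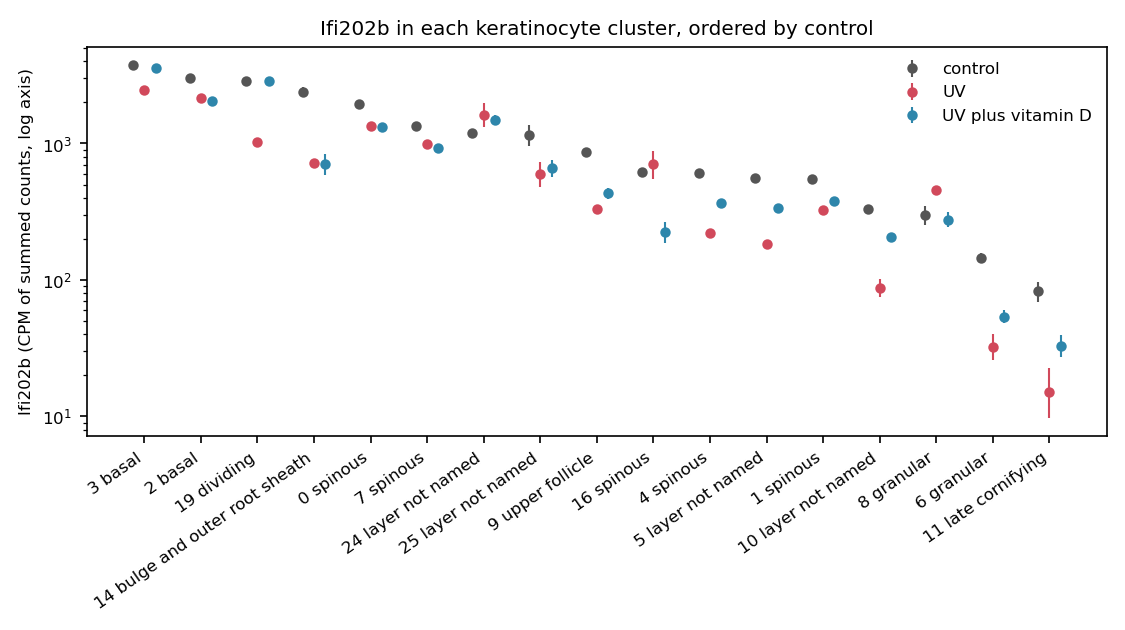
Ifi202b level (CPM of summed counts, log axis) in each of 17 keratinocyte clusters, ordered by the control level, with 95% counting intervals and 1 point per library. UV points lie below control in most clusters and above it in cluster 8, and cluster 24 holds 4 UV cells.

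The spinous clusters differed among themselves more than the libraries did within most of them. Cluster 0, led by Clca3a2 and Mt4, had 1949, 1342 and 1314 CPM in control, UV and UV plus vitamin D, and cluster 7, led by Mt4 and Hpgds, had 1349, 988.5 and 933.3 CPM. Clusters 1 and 4, both led by Alox12e, had 551.1, 325.8 and 378 CPM and 612.5, 222.2 and 366.4 CPM. In the first pair the vitamin D library was level with UV or below it, and in the second pair it was above UV. Clusters 5 and 10, which scored highest for spinous and granular markers but had more markers of another class than of their own among their leading genes and so carry no layer name, had 558.3, 182.8 and 337.2 CPM and 333, 87.81 and 205.1 CPM, so UV was 3.05-fold and 3.79-fold below control.

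Dividing keratinocytes, marked by Mki67 and Top2a, had 2865 CPM in control, 1027 CPM in UV and 2871 CPM in UV plus vitamin D. Control and UV plus vitamin D were level within counting error (ratio 1.002, 0.943 to 1.06), and UV was 2.79-fold lower (2.56 to 3.04). These are 85, 108 and 106 cells. In control and in UV plus vitamin D the dividing class was within 1.15-fold of the basal layer, and in UV it was 2.32-fold below it (2.15 to 2.51).

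The follicle showed lower levels in both irradiated libraries. Upper follicle cells had 859, 328.3 and 431.7 CPM in the 3 libraries, in the same order. Cells of the bulge and outer root sheath had 2403, 716.1 and 705 CPM, in 70, 283 and 38 cells, with the irradiated libraries level within counting error (ratio 0.984, 0.81 to 1.19). Sebocytes had 1102, 285.3 and 430 CPM. The hair matrix and shaft class, found in UV alone with 310 cells, was at 37.5 CPM.

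Single cells showed the same order. With every cell thinned to 3000 counts, which left out 175 control cells and none in the other libraries, the median basal cell had 6 Ifi202b counts in control, 3 in UV and 5 in UV plus vitamin D, and 7.03%, 17.4% and 10.3% of basal cells had none. Median spinous cells had 2, 1 and 1 counts. Granular cells without a count were 80.7%, 58.5% and 90.1%. Unthinned, 95.2%, 88.2% and 93.3% of basal cells had a count. Of the melanocytes and fibroblasts in UV, 97.9% and 94.2% had none in 3000 counts. The highest single cell held 0.219% to 0.724% of the gene's counts in a library, so no 1 cell set the library totals. Levels of classes with few counts can still rest on single cells, as in the Langerhans class of UV with 1 count.

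Outside the epithelium Ifi202b counts came with keratin counts. Fibroblasts had 250.9, 42.71 and 213 CPM, with summed Krt1, Krt5, Krt10 and Krt14 at 3247, 1710 and 3153 CPM. Per 100 of those keratin counts, fibroblasts had 7.73, 2.50 and 6.76 Ifi202b counts and all keratinocytes 8.61, 2.76 and 4.46. Myeloid cells had 11.3, 2.70 and 2.48 per 100. Melanocytes, found in UV alone, had 15.09 CPM. Basal keratinocytes had 26.4, 14.4 and 22.0 per 100, and every class outside the epithelium lay below them. Free keratinocyte RNA and mixed droplets were not separated from the cells' own RNA, so no expression is read from these values.

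Langerhans and T cells, types that are also found in the epidermis, had higher Ifi202b values than fibroblasts in control. The Langerhans class had 2396, 4.664 and 963.2 CPM, on 1255, 1 and 164 counts in 58, 43 and 22 cells. Its keratin counts were 13680, 1581 and 8616 CPM, so the library with hardly any Ifi202b was also the one with the least keratin. Ifi202b and keratin did not differ in proportion. Per 100 keratin counts the class had 17.5, 0.295 and 11.2 Ifi202b counts. The T and NK class had 1684, 242.5 and 388.4 CPM with keratin at 13300, 8031 and 11620 CPM, which is 12.7, 3.02 and 3.34 per 100. Whether these cells make any Ifi202b of their own was not tested.

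**Figure D3:**
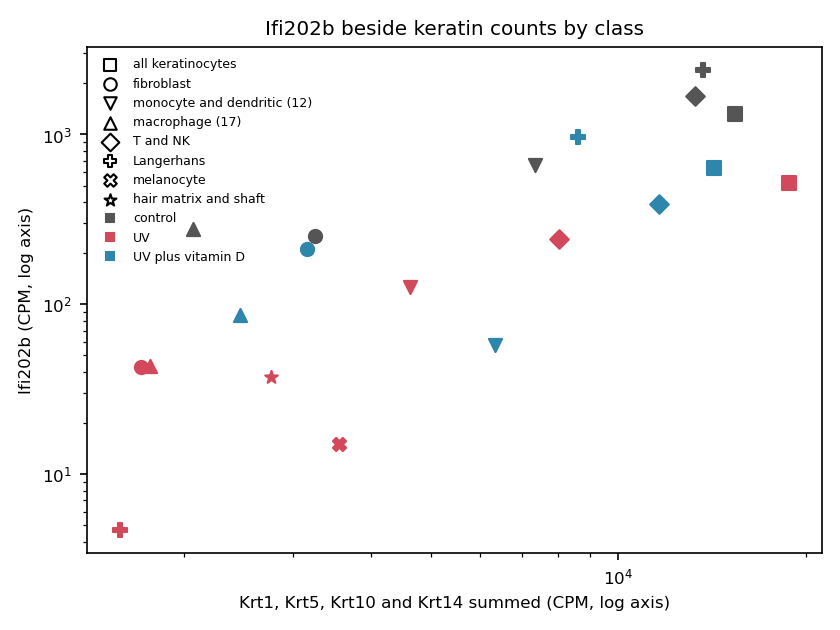
Ifi202b level against the summed level of 4 keratins by class and library (both in CPM on log axes). Colour marks the library and shape the class; Langerhans cells lie at the lower left in UV, with 1581 CPM of keratin and 4.664 CPM of Ifi202b, and at the upper right in control, with 13680 and 2396 CPM.

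The levels of the other 5 genes were low in keratinocytes. There Ifi203, Ifi204, Ifi205, Mndal and Aim2 stood at 0.302 to 2.17 CPM, with a count in 0.295% to 1.70% of keratinocytes. Keratinocytes are most of the cells, so their share of the counts could still be large: they held 68.7%, 16.7% and 54.1% of the Aim2 counts (46, 22 and 20 counts) and 27.5%, 4.11% and 12.3% of the Mndal counts. In control, myeloid cells held 61.1% and fibroblasts 30.7% of the Ifi203 counts, and fibroblasts held 93.3%, 87% and 94.5% of the Ifi205 counts in the 3 libraries. Over all cells each of the 5 was 3.09-fold to 4.94-fold higher in UV than in control, where myeloid cells were 10.8% of UV and 1.48% of control cells and fibroblasts 6.93% and 2.21%. The values within classes follow.

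**Figure D4:**
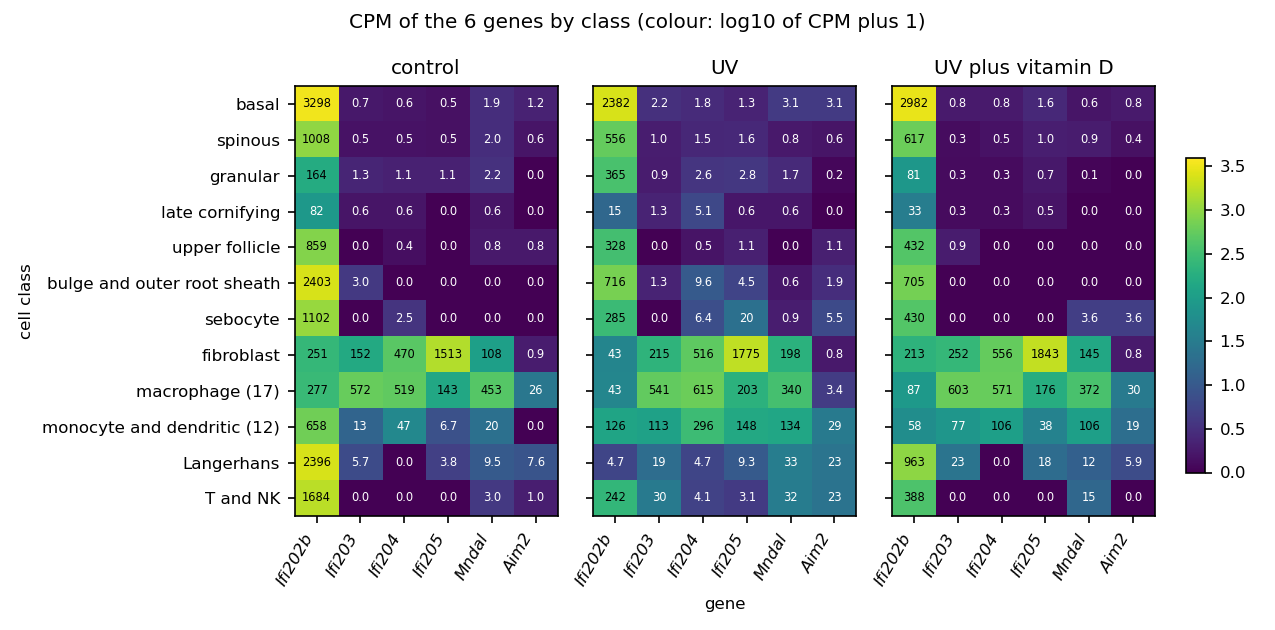
CPM of the 6 genes (columns) in 12 cell classes (rows), 1 panel per library, with the value printed and the colour giving log10 of CPM plus 1. Columns are to be read from top to bottom, since levels of different genes are not scaled for length. Ifi202b is highest in basal cells among epithelial classes, while Ifi203, Ifi204, Ifi205 and Mndal stand out in the fibroblast and macrophage rows. Aim2 stands out in the macrophage row of control and of UV plus vitamin D. In UV it does so in the monocyte and dendritic, T and NK and Langerhans rows, the last on 5 counts.

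Myeloid cells were 134, 590 and 90 cells in 2 clusters. Cluster 17 had macrophage markers such as Mrc1 and Pf4, was led also by Ccl8 and the interferon response genes Rsad2 and Oasl1, and held 114, 131 and 75 cells, and cluster 12, with class II genes, Il1b and Ms4a4c, had monocyte and dendritic cell markers and held 20, 459 and 15. Most control and vitamin D myeloid cells were thus in cluster 17 and most UV ones in cluster 12. The 14 macrophage markers summed to 13280, 12120 and 16300 CPM in the class.

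Ifi203 was at 458.8 CPM in control, 228.8 CPM in UV and 495 CPM in UV plus vitamin D over all myeloid cells. That is 2.005-fold lower in UV than in control (1.76 to 2.28). Within cluster 17 the values were 571.7, 540.7 and 603.3 CPM, and UV was level with control within counting error (1.06-fold lower, 0.917 to 1.22). Cluster 12 had 13.42, 112.8 and 76.72 CPM, on 2, 266 and 8 counts, so UV was not below control in either cluster beyond counting error, and the lower pooled value went with the cluster mix.

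Mndal, identical to Ifi203 at 60 of 60 promoter bases, had 365.1, 189.8 and 317.5 CPM over all myeloid cells, 1.92-fold lower in UV than in control (1.66 to 2.22). In cluster 17 it had 452.6, 340 and 372.4 CPM, and UV was 1.33-fold lower (1.12 to 1.58). Cluster 12 had 20.14, 134 and 105.5 CPM, on 3, 316 and 11 counts. UV was thus below control in cluster 17 and not in cluster 12, and the larger pooled difference also went with the cluster mix.

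Ifi204, the STING-linked sensor, had 423.5, 382.7 and 475.3 CPM over all myeloid cells, and UV and control were level within counting error (1.11-fold lower, 0.974 to 1.25). In cluster 17 it had 518.9, 614.9 and 571 CPM, 1.19-fold higher in UV (1.03 to 1.37). Ifi205 had 115.4, 162.6 and 147.9 CPM over the class and 142.9, 203.1 and 176.3 CPM in cluster 17, where UV was 1.42-fold higher (1.09 to 1.86). The 14 fibroblast markers summed to 317.6, 786.8 and 650.8 CPM in myeloid cells, the same order of libraries as for Ifi205, which has most of its counts in fibroblasts, and their part in it was not tested. UV plus vitamin D and UV were level within counting error for Ifi203, Ifi204, Ifi205 and Mndal in cluster 17.

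Aim2, the inflammasome sensor, had few counts. Myeloid cells had 20.36, 21.95 and 27.61 CPM, on 15, 71 and 14 counts, with no difference beyond counting error (ratio of UV to control 1.08, 0.612 to 2.03). By cluster the UV counts lay elsewhere than the others. In cluster 17 Aim2 had 25.52 CPM in control, 3.422 CPM in UV and 29.79 CPM in UV plus vitamin D, on 15, 3 and 12 counts. In cluster 12 the UV level was 28.84 CPM on 68 counts, against 0 counts in 20 control cells. In so few cells a floor of 3 counts would already be 20.1 CPM, so no difference is read from this.

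In 3000 thinned counts, at least 1 of Ifi203, Ifi204, Ifi205 and Mndal was found in most macrophages of cluster 17: 13.9%, 6.87% and 10.7% of cells had none of the 4. At least 2 of them were found in 66.7%, 71.8% and 61.3% of the cells. In cluster 12 of UV 37.7% of cells had at least 2. In fibroblasts at least 2 were found in 71.5%, 73.5% and 81.3% of the cells and all 4 in 5.7%, 12.7% and 8.81%. In keratinocytes 98% to 99.1% of cells had none of the 4.

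Fibroblasts were the main site of Ifi205. Its level was 1513 CPM in control, 1775 CPM in UV and 1843 CPM in UV plus vitamin D, and 87.6%, 90.5% and 97.4% of the 201, 378 and 193 fibroblasts had a count, against 0.366%, 1.70% and 0.885% of keratinocytes. UV was 1.17-fold above control (1.11 to 1.24), a direction that turned under 4 other ways of filtering or classing the cells. Ifi204 had 469.5, 516.5 and 556.3 CPM, with UV and control level within counting error (ratio 1.10, 0.993 to 1.22). Aim2 had 1, 2 and 1 counts in fibroblasts, under 1 CPM in each library.

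Ifi203 had 152.3, 215.1 and 252.4 CPM in fibroblasts, 1.41-fold higher in UV than in control (1.19 to 1.69). Mndal had 107.5, 198.3 and 145 CPM, 1.84-fold higher in UV (1.51 to 2.27). Of 7 measured family genes, 1 was past 1.5-fold upwards (Mndal) and 1 downwards (Ifi202b). Of all genes, 10.4% were higher and 5.75% lower by that much, so nothing is read from the count. Mndal shares part of its 3' sequence with Ifi205, which had 1513, 1775 and 1843 CPM in fibroblasts, and the part of such reads was not tested. The 14 macrophage markers summed to 34.05, 167.3 and 13.11 CPM in fibroblasts, highest in UV, as Mndal was, and their part in the Mndal and Ifi203 values was not tested. The 2 fibroblast clusters differed. Cluster 13, led by Pi16, Cxcl1 and Ccl2, had Mndal at 57.07, 143.9 and 121.5 CPM, and cluster 20, led by Col1a2 and Col1a1, at 229, 247.3 and 203.8 CPM, so UV was 2.52-fold above control in cluster 13 (1.81 to 3.58) and level within counting error in cluster 20 (1.08, 0.838 to 1.41). The difference between those ratios was not tested. Ifi205 had 1606, 2163 and 1747 CPM in cluster 13 and 1291, 1425 and 2081 CPM in cluster 20. In cluster 20 it was 1.46-fold higher in UV plus vitamin D than in UV (1.34 to 1.59), and in cluster 13 it was 1.24-fold lower (1.16 to 1.32). Ifi203 and Ifi204 in cluster 20 were also higher in UV plus vitamin D than in UV, by 1.70-fold (1.40 to 2.05) and 1.52-fold (1.27 to 1.82), on 46 cells against 194.

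**Figure D5:**
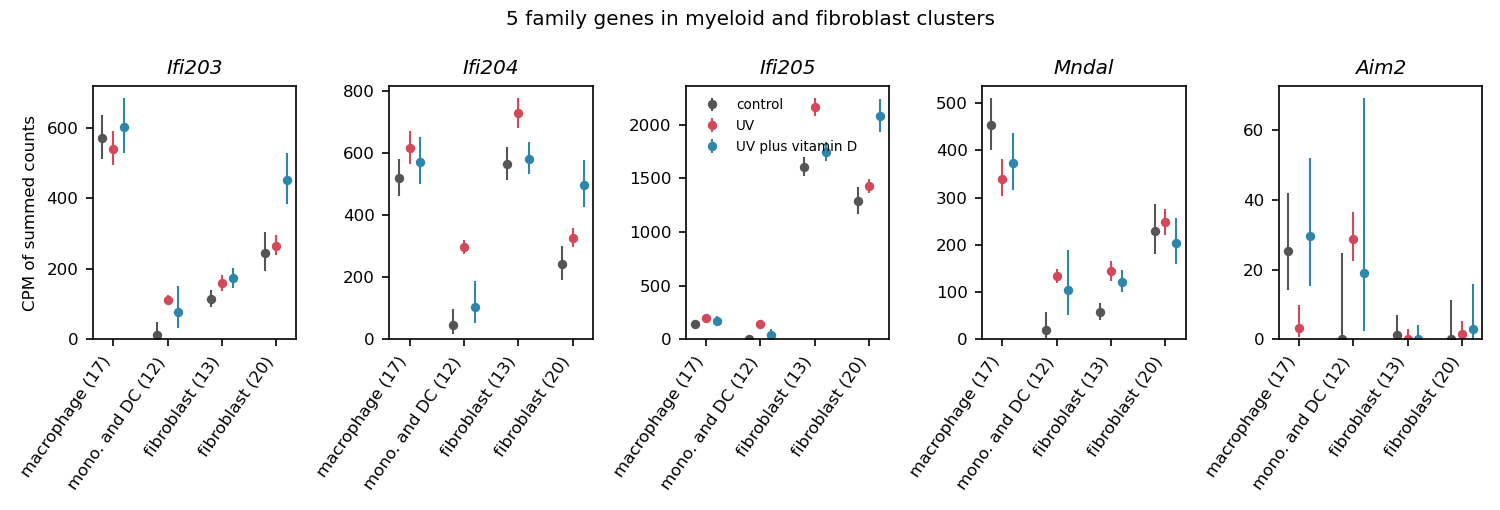
Level of 5 genes (CPM of summed counts, linear axes from 0) in 2 myeloid and 2 fibroblast clusters, 1 point per library with its 95% counting interval. Ifi203 in macrophages lies between 540.7 and 603.3 CPM in all 3 libraries, and Aim2 in macrophages is 3.422 CPM in UV against 25.52 CPM in control.

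The T and NK class, 1 cluster led by Nkg7, Ctla2a, Cd3g and Trdc with 129, 169 and 58 cells, had more counts of Ifi203, Mndal and Aim2 in UV than in the other libraries, and fewer of Ifi202b than in control (above). Ifi203 had 0, 29 and 0 counts, which is 29.79 CPM in UV and 9.92-fold above control when control is set at a floor of 3 counts. Mndal had 3, 31 and 8 counts, 10.6-fold higher in UV than in control (3.31 to 54.2). Aim2 had 1, 22 and 0 counts, 22.6-fold higher in UV (3.65 to 932). In UV 10.7% of the cells had an Ifi203 count (8.28% when thinned), against 0.893% of UV keratinocytes, at median depths of 3949 and 9561 counts. The 0 of 129 control and 0 of 58 vitamin D cells had median depths of 6597 and 7210.5 counts. The 15 T and NK markers summed to 2043, 6521 and 3605 CPM in the class and its keratins were at 13300, 8031 and 11620 CPM, so marker level and keratin level both moved with the result, and their part in it was not tested. The Langerhans class had 0 to 7 counts of each of the 5 genes in any library.

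The wider family had 15 genes in the tables. In keratinocytes 11 had at least 20 counts in control and UV together. On the log2 scale of CPM plus 10, Ifi202b alone was past 1.5-fold, downwards, where 1.22% of all genes were lower and 2.42% higher, and the family median was 0.05 against -0.01 over all genes. Since the choice of genes used that contrast, nothing is read from the count. Against UV, UV plus vitamin D had 0 of 10 past 1.5-fold either way, beside 0.261% of all genes higher and 1.5% lower. A pseudocount of 10 hides fold differences of genes this low: Ifi204 in keratinocytes was 4.19-fold higher in UV (2.83 to 6.30) at 2.165 CPM against 0.5168 CPM.

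In myeloid cells all 15 family genes had enough counts. None was 1.5-fold higher in UV than in control and 7 were lower by that much, Ifi202b, Ifi203, Ifi206, Ifi207, Mndal, Pydc3 and Gm8995, where 18.4% of all genes were higher and 6.13% lower. Ifi202b is among the genes counted, although no expression is read from its values outside the epithelium. The family median was -0.55 against 0.15 over all genes. In cluster 17, 4 of 12 were lower, Ifi202b, Ifi206, Ifi209 and Pydc3, beside 22.4% of all genes higher and 6.98% lower, with a median of -0.16 against 0.20. UV plus vitamin D against UV had 6 of 14 higher and 0 lower in myeloid cells, beside 8.34% and 17.1% of all genes, with a median of 0.39 against -0.09. Within cluster 17 that comparison had 3 of 12 higher, Ifi202b, Ifi209 and Pydc3, and 0 lower. Of all genes there, 8.05% were higher and 18.9% lower, and the medians were 0.14 and -0.14. In T and NK cells 6 had at least 20 counts, among them Ifi203, Ifi209, Mndal and Aim2 with 0 to 3 counts in control, which passed only through UV, so their direction was set by the filter. Of all genes there, 16.9% were higher and 16.3% lower.

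Mnda, the copy that shares most of its 3' sequence with Ifi205, had 210.4, 209.3 and 246.5 CPM in myeloid cells and 315.4, 372.3 and 388.4 CPM in fibroblasts. Ifi207 had 798.1, 473.9 and 662.6 CPM in myeloid cells. Ifi206 had 169.7, 63.69 and 122.3 CPM there, and Ifi209 194.1, 129.2 and 142 CPM. Ifi206 and Ifi209 had 0 or 1 counts in fibroblasts in each library, in contrast to Ifi203, Ifi204, Ifi205, Mndal, Mnda and Ifi207.

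The partners of these sensors were read from lists of pathway genes. Of 17 measured inflammasome and pyroptosis genes, 3 were higher in UV keratinocytes by 1.5-fold and 0 lower, beside 2.42% and 1.22% of all genes. They were Gsdmc, a gasdermin, at 31.44 against 2.16 CPM, Il18, a cytokine cut by caspase 1, at 155.2 against 58.13 CPM, and Gsdma at 281.3 against 137.8 CPM. Casp1 had 38.61 against 25.02 CPM, below that threshold with the pseudocount. Of these, Gsdmc alone was lower by 1.5-fold in UV plus vitamin D than in UV, at 4.383 CPM, beside 1.5% of all genes. The UV library is in both comparisons, here and in the lists below. In myeloid cells, of which most UV cells lay in cluster 12, itself led by Il1b, 12 of 21 were higher in UV and 1 lower, beside 18.4% and 6.13% of all genes. Among the higher were Il1b at 1313 against 449.3 CPM and Mefv, another pyrin domain sensor, at 48.54 against 8.144 CPM. In cluster 17 alone 10 of 15 were higher and 0 lower, beside 22.4% and 6.98%.

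Other routes of nucleic acid sensing were counted in the same way. In keratinocytes none of 19 other nucleic acid sensors and none of 20 genes of STING and interferon regulatory factor signalling passed 1.5-fold between UV and control. Of all genes, 2.42% were higher and 1.22% lower by that much. The pseudocount hid differences of genes with few CPM here too. Without it Irf1 was 2.79-fold (2.38 to 3.27) and Irf7 1.95-fold (1.73 to 2.20) higher in UV. Ticam1 was 1.685-fold (1.44 to 1.98) and Xrcc5 1.72-fold (1.45 to 2.04) lower. In myeloid cells 9 of 18 genes of the STING list were higher in UV and 0 lower, beside 18.4% and 6.13% of all genes. Irf7 was at 297.7 against 67.87 CPM and Tmem173 at 30.92 against 10.86 CPM, the latter on 100 counts against 8. The filter and the cluster mix named above apply here too. In cluster 17 alone 7 of 14 were higher and 0 lower, beside 22.4% and 6.98% of all genes. Of 8 genes that remove DNA, 2 were higher in UV keratinocytes, beside 2.42% of all genes, Dnase1l2 at 68.3 against 15.91 CPM and Samhd1 at 84.63 against 30.95 CPM, and both were lower in UV plus vitamin D than in UV, beside 1.5% of all genes.

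The interferon response list gives the setting in which the family is usually induced. In keratinocytes 6 of 38 measured genes were higher in UV and 0 lower, beside 2.42% and 1.22% of all genes, with Ifi27l2a at 29.35 against 4.201 CPM. In basal cells 13 of 21 were higher in UV and 0 lower, beside 3.04% and 1.85% of all genes, with a list median of 0.68 against 0.01, and 10 of 21 were lower in UV plus vitamin D than in UV, beside 1.76%. In the same basal cells Ifi202b was 1.39-fold lower in UV. In fibroblasts 30 of 37 were higher in UV and 0 lower, beside 10.4% and 5.75% of all genes.

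Myeloid cells gave both directions, 19 of 43 higher and 12 lower in UV, beside 18.4% and 6.13% of all genes. Among the lower were Ifit1 at 122.4 against 1279 CPM, Rsad2 at 501.4 against 3596 CPM and Cmpk2 at 39.88 against 259.3 CPM. Ifnb1, which encodes interferon beta, had 491.4 CPM in control, 18.24 CPM in UV and 185.4 CPM in UV plus vitamin D. These genes were also lower within cluster 17, with Ifit1 at 286.3 against 1548 CPM, Rsad2 at 1283 against 4407 CPM, Cmpk2 at 108.4 against 321.6 CPM and Ifnb1 at 51.34 against 612.5 CPM, whereas Ifi203 there was level within counting error.

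Over 33 class by library units with at least 50 cells, Pearson's r of log2 of CPM plus 10 was used to find the genes most like each member among 10761 genes. The units share libraries and classes, and the values are a description. Ifi202b was nearest to Clca3a2 (r = 0.95), Ppp1r14c (0.92) and Bcar1 (0.92). Ifi203 was nearest to Cp (0.99), Mndal (0.98) and Dab2 (0.98), and Mndal to Ifi203 (0.98), B4galt5 (0.98) and Cp (0.98). Ifi204 was nearest to Mnda, Slfn5 and Emilin2, and Ifi205 to Lrrc32, Fn1 and Zcchc24, each at 0.99. Aim2 was nearest to Irf8 (0.96), Dock2 (0.95) and Ptpn18 (0.94). Ifi203, Ifi204, Ifi205 and Mndal had r of 0.86 to 0.98 with each other, Aim2 0.30 to 0.67 with them, and Ifi202b -0.38 to -0.13 with the other 5.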

How the data were processed

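The deposited tables, 1 per library, give each gene's counts in each barcode as whole numbers. The authors' tools, per the submitters' processing notes, were FastQC, fastp, STAR and featureCounts, without versions and with the human build GRCh38, although the symbols are mouse symbols. The sources used here do not say whether a count is a molecule or a read, and for reads the intervals are too narrow. Barcodes with under 200 genes or over 20% mitochondrial counts were left out. Cells were clustered together (scanpy 1.11.5, 2000 variable genes without the family, 30 components, 15 neighbours, Leiden resolution 1). A cluster took the name of the marker list with the highest score, of 24 lists, if at least 3 markers were detected in 25% of its cells and either 1 was among its top 10 genes or 6 were detected, and lost its layer or class name where another class had more markers in that top 10. Scrublet called 0 doublets and so had not worked, and doublets remain. Counts were summed per class and library. Ratios have exact conditional intervals, levels exact Poisson intervals and shares exact binomial intervals. List members count as apart when 1.5-fold apart on log2 of CPM plus 10 with at least 20 counts in the 2 libraries together. The rule was tried on simulated counts only for genes with at least 200 control counts and with counting error alone. It was not checked down to 20 counts or for differences between libraries. Members, lists and settings were chosen with earlier results of these data known. Named genes are the members, other family genes, up to 4 genes per list with the largest log2 ratio and 50 counts, and the 3 most alike per member.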

Additional observations from a re-analysis of the deposited data

How the results depend on the processing

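Of 466 alternative values of 36 log2 ratios, 345 stayed within the counting interval of the reported value, 100 moved outside it with the sign kept and 21 changed sign. The cause was not tested, except where the setting itself moves cells between classes. Ifi202b in all keratinocytes, UV against control (-1.36), was -1.29 with median-of-ratios scaling, -1.28 as a mean of each cell's own CPM, -1.18 at Leiden resolution 2, -1.40 with each cell classed on its own, -0.68 with layers and -0.65 with clusters weighted to control. UV plus vitamin D against UV (0.30) was 0.26, 0.37 and 0.21 at resolution 2, with cells classed on their own and with clusters weighted. Basal Ifi202b, UV against control (-0.47), was -0.61 at resolution 2 and with library means subtracted, -0.82 with cells classed on their own and -0.53 with clusters weighted. Basal UV plus vitamin D against UV (0.32) was 0.40 with all deposited barcodes, 0.26 with median-of-ratios scaling, 0.47 at resolution 2, 0.54 with library means subtracted, 0.71 with cells classed on their own and 0.24 with clusters weighted.

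Granular Ifi202b turned from 1.16 (UV against control) to -1.75 with family genes allowed among the variable genes, -0.40 and -1.61 at resolutions 2 and 0.5, -1.58 with library means subtracted, -0.76 with cells classed on their own, -0.92 with clusters weighted and -2.15 without cluster 8. Its UV plus vitamin D against UV value of -2.18 turned to 0.53 with family genes allowed, 0.93 at resolution 0.5, 0.33 with library means subtracted, 0.23 with cells classed on their own and 0.73 without cluster 8. With library means subtracted, spinous Ifi202b went from -0.86 to 0.02 (UV against control) and from 0.15 to -0.70 (UV plus vitamin D against UV), and upper follicle Ifi202b from 0.39 to -0.23. Myeloid Ifi204, UV plus vitamin D against UV, went from 0.31 to -0.21 with clusters weighted and -0.11 in cluster 17. Fibroblast Ifi205, UV against control, went from 0.23 to -0.14 with all barcodes and with family genes allowed, -0.10 at resolution 2 and -0.05 with library means subtracted. With a pseudocount of 1 CPM, 3 family genes were higher in UV keratinocytes (0 with 10) and 3 lower in UV plus vitamin D (0 with 10). Weighting by clusters, cluster 17 alone and leaving out cluster 8 were chosen after seeing the data. Of 39 shares of cells, 31 moved when cells were thinned. No paired analysis was possible because each group has 1 library.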
